A study of Homo sapiens with 8 samples.

Results

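Under olaparib, SUM159 cells carrying an shRNA against FOXO1 (shFoxO1) were compared with SUM159 cells carrying a control shRNA (shCon). Every gene that the authors' deposited table of this comparison marks as tested was taken, which gave 14660 of 60595 listed genes (24.2%). SUM159 is an established cell line from a human breast cancer without hormone receptors or HER2 amplification, and olaparib blocks PARP1 and PARP2, which act in DNA repair. Both groups carried a lentiviral shRNA and were in 10 uM olaparib for 3 days, in medium with serum, insulin and hydrocortisone. The labels list 2 libraries for each of the 4 groups of the series, and each gene has 1 pooled FPKM value in each group. FPKM counts sequenced fragments relative to transcript length and to the size of the library, so it is a level per length. Ribosomal RNA was depleted before directional, paired-end sequencing. Levels in shCon cells in DMSO are set beside some genes, from the authors' other table, which shares the shCon olaparib libraries and was scaled separately (its shCon olaparib values were lower by a factor of 1.017 at the median over 13688 genes). Cells with shFoxO1 in DMSO were not part of the tables used, so whether a difference needs olaparib cannot be told. The labels give no sequence or number of hairpins, so loss of FOXO1 and other effects of a hairpin cannot be told apart. No value per library was used here, so the values carry no spread between libraries, and their depth is unknown. Whether the libraries came from separate cultures is not stated, so the q-values may measure technical spread.

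FOXO1 is a forkhead transcription factor that AKT phosphorylates and keeps out of the nucleus when insulin or growth factor signalling is on. With that signalling low, or under stress, it enters the nucleus and drives genes of stress resistance, cell cycle arrest, lipid handling and insulin sensitivity, the sestrins among them. Interferon signalling starts with sensors of RNA or DNA in the cytosol, which act through IRF3, IRF7 and NF-kB to induce interferons and chemokines. Secreted interferon binds receptors coupled to JAK kinases, and STAT factors with IRF9 then bind the interferon response element of antiviral genes.

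The target of the hairpin, FOXO1 (ENSG00000150907, chromosome 13, 40555667 to 40666641 of GRCh38.p14), checks the label of the shRNA. The level of FOXO1 was 89.2 FPKM with shCon and 17.5 FPKM with shFoxO1, lower in the group named for the hairpin (log2 ratio -2.35, with q = 0.000244 by the authors' deposited table). FOXO3, a second forkhead factor of the same family, was not called at 39.3 and 43.5 FPKM. FOXO4, another member, fell from 5.77 to 2.32 FPKM.

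A gene is said here to have risen or fallen where q was at most 0.05 in the authors' deposited table. By that rule 3314 genes rose with shFoxO1 (22.6% of those tested), 2904 fell (19.8%) and 8442 were not called. Over all tested genes the log2 ratios had a median of 0.01 and quartiles of -0.67 and 0.63. The counts of every list below are to be read against those shares. Differences of at least 2-fold made up 1737 of the rises and 1731 of the falls. The smallest q-value, 0.000244, was shared by 3001 genes, so these cannot be ranked by it. Setting the upper quartiles of both groups equal would lower every log2 ratio by 0.18, and list medians are given on the deposited scale. Counts in a list cover its tested members: a gene low in one group was tested only if the other was high enough, so the counts describe and do not support a direction for the list. When the adjustment covers every listed gene, the calls of ERBB2, PPARG, PSME1, SOCS6 and STC2, given below, are lost, as are others where that is said. Among 15 housekeeping genes 7 rose and 1 fell (median log2 ratio 0.37): GAPDH was not called at 2984 and 2918 FPKM, while B2M and the transferrin receptor TFRC rose.

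**Figure D1:**
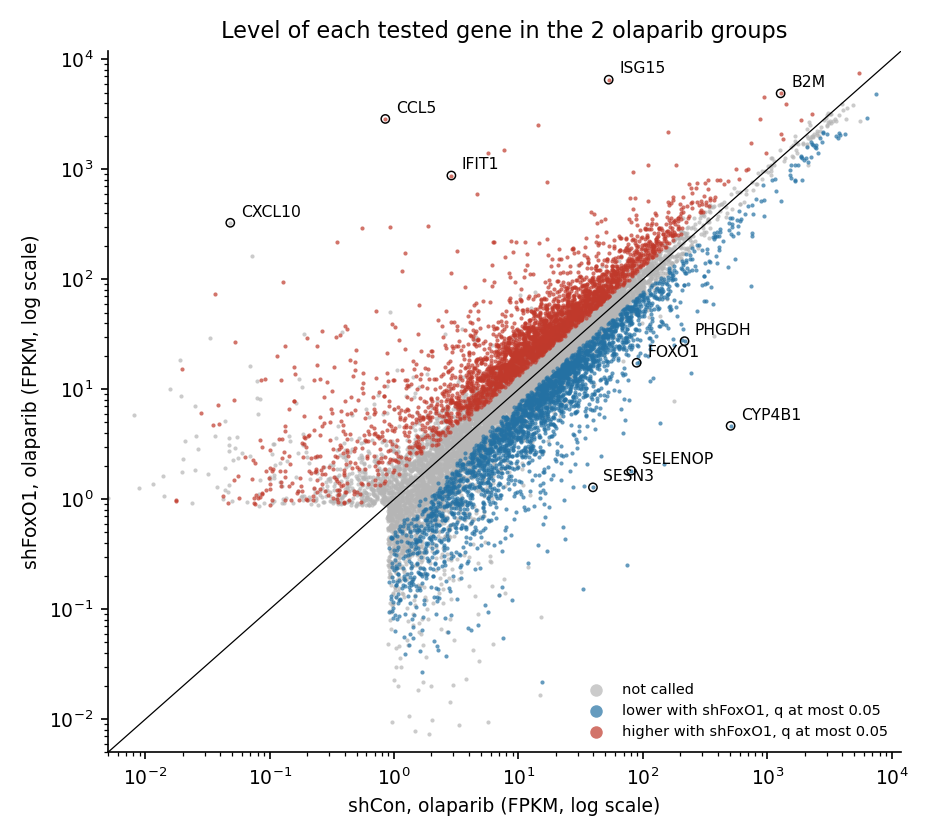
Level of each tested gene with shCon (horizontal) and shFoxO1 (vertical) under olaparib, in FPKM on log axes, 1 point per gene and 1 pooled value per group, coloured by the authors' q at most 0.05; the line marks equal levels and the 232 tested genes at 0 in a group are not drawn. ISG15, IFIT1 and CCL5 stand far above the line and CYP4B1, SELENOP and SESN3 far below it, while CXCL10 is not called in spite of its ratio.

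Rises were commoner among abundant transcripts, while the share of falls varied less, between 17.3% and 23.5%, with no order by level. When tested genes were put into 10 equal groups by mean FPKM, 9.89% of the lowest group rose and 17.7% fell, with a median log2 ratio of -0.65. In the highest group, from 69.8 to 6517 FPKM, 37.1% rose and 19.6% fell, with a median of 0.23. Among 11815 genes that RefSeq lists as protein-coding, 26.5% rose and 21.0% fell (median 0.07). Among 656 long noncoding RNA genes, 8.23% rose and 20.9% fell (median -0.52). The part that abundance plays in a list's count was not tested.

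**Figure D2:**
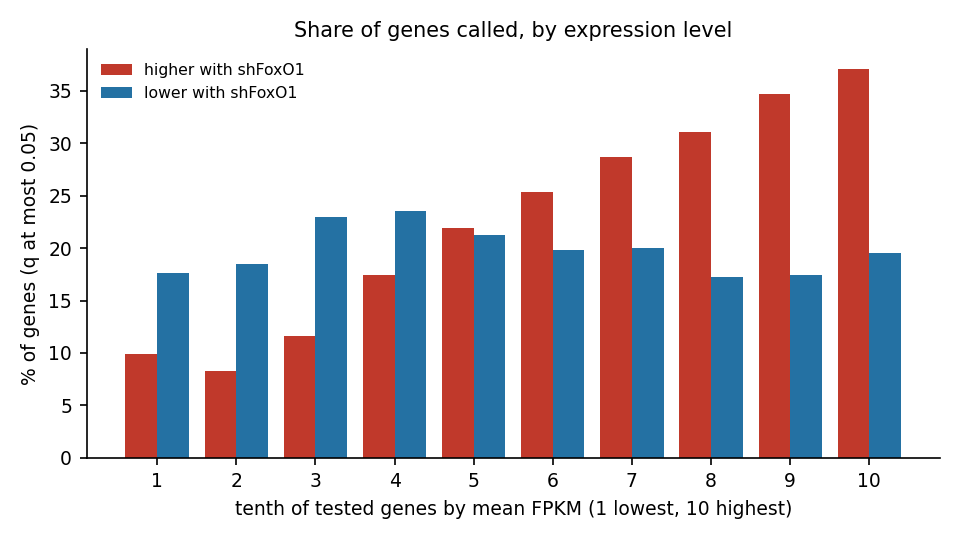
Share of tested genes called higher (red) or lower (blue) with shFoxO1, in percent, in 10 equal groups by mean FPKM over both olaparib groups (1 lowest, 10 highest, 1466 genes in each). The share called higher goes from 9.89% in the lowest group to 37.1% in the highest.

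The differences were also unevenly spread over the genome, which bears on several lists below. Among genes whose mean FPKM was 5 or more, 48.4% of 455 genes on chromosome 7 rose and 10.1% fell (median log2 ratio 0.54). On chromosome 13, which holds FOXO1, 53.1% of 147 genes rose and 10.9% fell (median 0.55), and chromosomes 15 and 2 had medians of 0.46 and 0.41. At the other end, chromosomes 22 and 4 had medians of -0.10 each, and on chromosome 4 the 26.4% that fell outnumbered the 21.5% that rose. All 15 windows of 10 Mb on chromosome 7 that held at least 10 such genes had a median above 0, against 184 of 276 windows over the genome.

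The strongest run of windows lay between 20 and 60 Mb of chromosome 7, the short arm around the HOXA cluster, IL6 and EGFR. There 64 of 87 genes rose (73.6%) and 1 fell, with a median log2 ratio of 1.12 against 0.12 for the other genes of that level. The middle of the 87 ratios, from the first to the last quartile, lay between 0.51 and 1.68. The median level in that run was 30.2 FPKM with shCon in DMSO, 14.6 FPKM in shCon cells under olaparib and 33.5 FPKM in shFoxO1 cells under olaparib, while the other genes were at 20.9, 18.98 and 21.2 FPKM. So in this run it was the shCon olaparib group, shared by both tables, that stood apart from the others. Some ubiquitous genes of the run, chosen after their values were seen, show the same order: MRPS24, a mitochondrial ribosomal protein, was at 268, 64.6 and 247 FPKM in those 3 groups, CYCS, cytochrome c, at 74.9, 25.7 and 75.03 FPKM, and CHCHD2 at 516, 175 and 525 FPKM. Others, also chosen after their values were seen, did not show it or did so weakly. H2AFV was at 156, 96.8 and 89.0 FPKM and TOMM7 at 98.9, 69.5 and 74.2 FPKM. GRB10, an adaptor of the insulin receptor, was at 93.3, 11.1 and 104 FPKM. DNA copy number was not measured here, and the part of this pattern in any single result was not tested. Members of the lists that are printed below and lie in this run are named as such. Others are only counted in their lists. Among these, chosen after their values were seen, PPIA of the housekeeping genes and GARS of the tRNA synthetases rose.

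**Figure D3:**
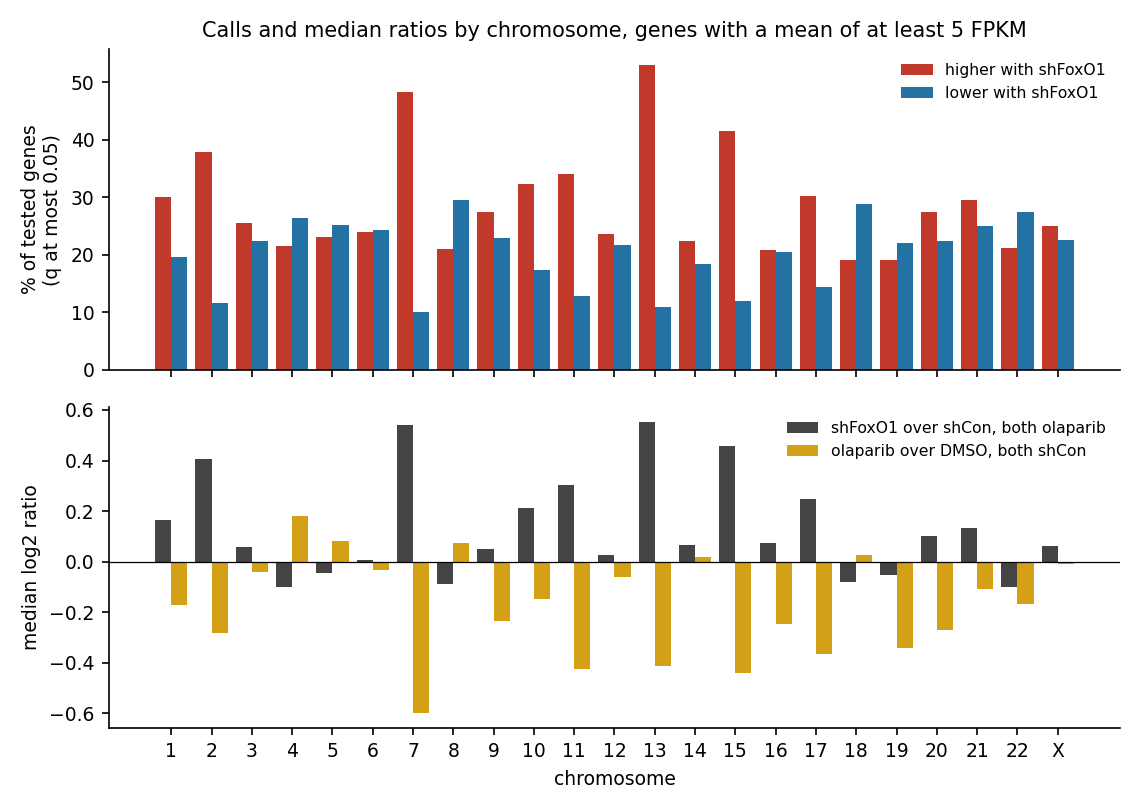
Upper panel, share of tested genes of mean FPKM 5 or more called higher (red) or lower (blue) with shFoxO1, in percent, for each chromosome; lower panel, median log2 ratio of shFoxO1 over shCon under olaparib (dark) and of olaparib over DMSO in shCon cells (gold), 2 comparisons that share the shCon olaparib libraries. Chromosomes 7 and 13 have the highest medians in the first comparison, 0.54 and 0.55, and medians of -0.60 and -0.41 in the second.

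Among genes of at least 1 FPKM in both groups, the largest rises included many antiviral genes. The 12 largest were IFIT1, IFIT3, IFIT2, OASL, SCG5, DDX58, BIRC3, ISG15, IL7R, IFIH1, SQOR and SAMD9. Several are not antiviral genes: SCG5, a chaperone of prohormone convertase in neuroendocrine cells, rose from 1.89 to 304 FPKM. SQOR, the mitochondrial enzyme that oxidises hydrogen sulfide, rose from 17.003 to 764 FPKM. IL7R, the receptor chain for the lymphoid cytokine IL-7, rose from 1.15 to 120 FPKM, although T and B cell markers were absent (below).

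The largest falls were in genes of varied roles. CYP4B1, a fatty acid and xenobiotic hydroxylase (chromosome 1, 46799046 to 46819413 in GRCh38.p14), fell from 508 to 4.66 FPKM, a 109-fold difference. CIDEC, a protein of fat droplets, fell from 147 to 2.08 FPKM. SELENOP, the secreted selenium carrier, fell from 80.7 to 1.82 FPKM, and SULT1E1, the estrogen sulfotransferase, from 138 to 4.93 FPKM. These 4 genes were all above 80 FPKM with shCon and below 5 FPKM with shFoxO1. The list went on with SESN3, PARM1 (33.4 to 1.32 FPKM), ADD3 (adducin, 27.6 to 1.31 FPKM), UNC5B (a netrin receptor, 46.2 to 2.48 FPKM), PWWP3B (69.6 to 4.03 FPKM), MME, MAN1A1 and PPP1R14C (22.1 to 1.51 FPKM). MME, the cell surface peptidase neprilysin, fell from 243 to 14.1 FPKM, and MAN1A1, a Golgi mannosidase, from 35.3 to 2.103 FPKM.

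In absolute level the rises were led by ISG15, B2M and FTH1 and the falls by mitochondrially encoded transcripts. FTH1, the ferritin heavy chain, went up by 3588 FPKM and MT2A, a metallothionein, by 2563 FPKM. SOD2, the mitochondrial superoxide dismutase, rose from 161 to 2176 FPKM. Of the 16 tested genes on the mitochondrial genome 8 fell and 2 rose: MT-CO3 fell from 6392 to 2908 FPKM, whereas MT-CO2 rose from 5457 to 7577 FPKM and the ribosomal RNA MT-RNR1 from 867 to 2850 FPKM. The other mitochondrial ribosomal RNA, MT-RNR2, was not called at 3195 and 2767 FPKM. The libraries were depleted of ribosomal RNA, and the part of depletion in these 2 levels was not tested. Mitochondrial transcripts took 9.34% of all FPKM with shCon and 6.34% with shFoxO1. Ribosomal proteins RPS2 (3821 to 2038 FPKM), RPL8 and RPL5 were also among the 10 largest falls in FPKM, with TGFBI, a secreted matrix protein, which fell from 1890 to 805 FPKM.

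**Figure D4:**
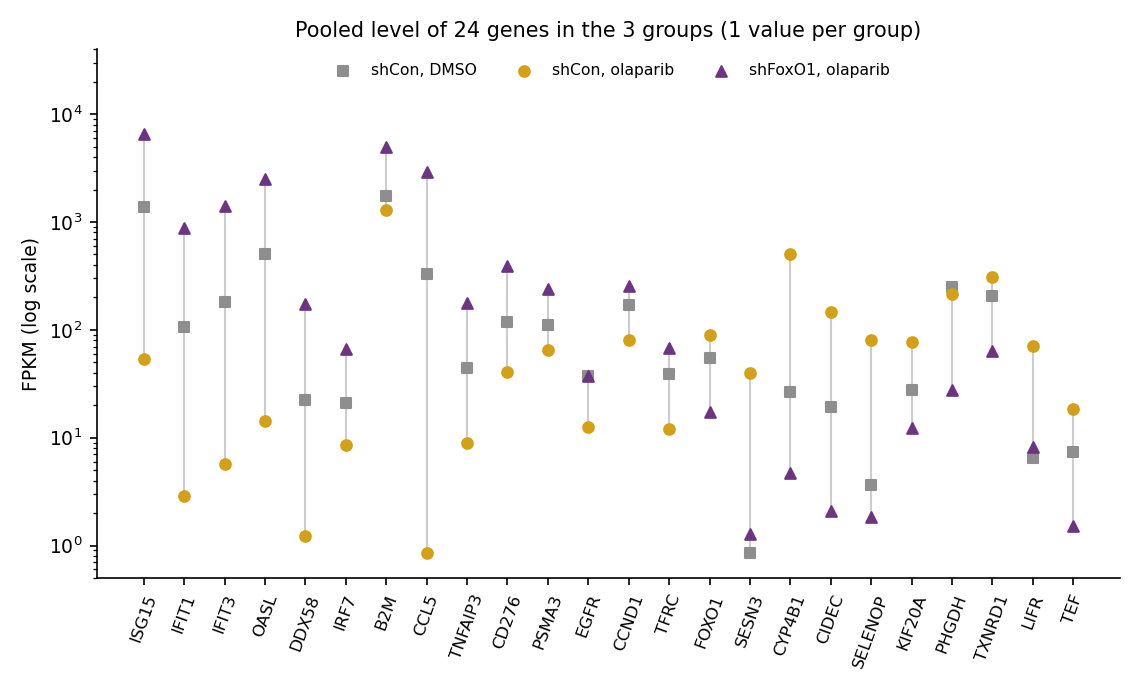
Pooled level in FPKM (log axis) of 24 genes in shCon cells in DMSO (grey squares), shCon cells under olaparib (gold circles) and shFoxO1 cells under olaparib (purple triangles), with 1 value per group and a line over the range; the DMSO values come from a separately scaled table. ISG15 is at 1366, 53.2 and 6544 FPKM in that order and CYP4B1 at 26.3, 508 and 4.66 FPKM.

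For many of these genes the shCon olaparib level was the extreme of the 3 groups. They were picked by their difference between the 2 olaparib groups, a choice that itself favours an extreme shCon olaparib level. The share of all tested genes with that order was not computed. IFIT1 was at 107 FPKM with shCon in DMSO, 2.89 FPKM in shCon cells under olaparib and 880 FPKM in shFoxO1 cells under olaparib. SELENOP was at 3.63, 80.7 and 1.82 FPKM in the same order, and SESN3 at 0.857, 39.7 and 1.29 FPKM. For IFIT1 and ISG15 the shFoxO1 level also stood above that in DMSO, for SESN3 it was near it, and for EGFR it matched it at 37.4 against 37.0 FPKM. No test between shFoxO1 olaparib and shCon DMSO was made, since they stand in different tables.

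Of the 6 tested FOXO and sestrin genes, 5 fell and FOXO3 was not called (median log2 ratio -1.72). Sestrins restrain mTORC1 and limit oxidative stress: SESN3 fell from 39.7 to 1.29 FPKM, SESN1 from 54.6 to 12.4 FPKM and SESN2 from 25.6 to 13.7 FPKM. FOXO1 was the target of the hairpin, so its own fall is no finding.

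Genes that respond to glucocorticoid hormone, to FOXO factors or to both divided, and not all of them are targets of both. Of 20 tested 9 rose and 7 fell (median 0.58), above both background shares. The falls included CCNG2, an atypical cyclin of quiescent cells (34.3 to 9.67 FPKM), CEBPD, a stress-induced transcription factor (127 to 30.3 FPKM), the kinase SGK1 (15.1 to 4.92 FPKM) and KLF15 (11.6 to 6.02 FPKM). The rises included ANGPTL4, an inhibitor of lipoprotein lipase (9.58 to 217 FPKM), DUSP1, a MAP kinase phosphatase (119 to 351 FPKM), and the NF-kB inhibitors NFKBIA (72.6 to 239 FPKM) and TNFAIP3 (8.98 to 176 FPKM). The last pair are NF-kB targets as well. BCL6, a repressor, was not called at 80.7 and 95.7 FPKM.

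Upstream of FOXO1, the insulin and PI3K genes moved in both directions, with 4 of 14 higher and 4 lower (median -0.35), near the background. The insulin receptor INSR fell from 9.01 to 3.65 FPKM while IGF1R, the IGF1 receptor, rose from 4.79 to 14.7 FPKM. IRS2, the adaptor of both receptors, rose from 7.75 to 24.5 FPKM. The catalytic subunits of PI3K split, PIK3CA falling from 13.2 to 7.27 FPKM and PIK3CB rising from 9.39 to 19.8 FPKM, and so did the regulatory subunits PIK3R1 (162 to 116 FPKM) and PIK3R3 (8.999 to 31.1 FPKM). AKT1 and AKT2 were not called, at 92.5 and 69.95 FPKM and at 63.5 and 51.4 FPKM.

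The IGF binding proteins, which hold IGF in the extracellular fluid, also divided, with 3 of 8 members of the list higher and 3 lower. IGFBP6 rose from 83.9 to 955 FPKM and IGFBP4 from 169 to 497 FPKM. PAPPA2, a protease that releases IGF from its binding proteins, fell from 15.6 to 0.0219 FPKM. Of the stanniocalcins, which inhibit such proteases, STC1 rose from 1.57 to 5.54 FPKM and STC2 fell from 28.3 to 16.8 FPKM. IGFBP7 was not called at 0.935 and 50.6 FPKM (the authors' deposited table gives q = 0.0919). IGFBP3, in the chromosome 7 run, fell from 1.20 to 0.202 FPKM against the direction of its neighbours.

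Interferon pathway genes were called higher more often than lower at the steps from ligand to effector, with a smaller share called among sensors and signal carriers than among the IFIT and MX effectors. At the first step, 1 of 13 listed interferon genes was tested: IFNL1, a type III interferon, was listed at 0 with shCon and at 9.98 FPKM with shFoxO1 and was called higher. Of 19 sensors and adaptors 9 rose and 2 fell (median log2 ratio 0.58). All 3 RIG-I-like receptors of double-stranded RNA rose: DDX58, which encodes RIG-I, from 1.23 to 172 FPKM, IFIH1, which encodes MDA5, from 3.23 to 180 FPKM, and the regulator DHX58 from 9.44 to 93.8 FPKM. SAMHD1, which degrades nucleotides and restricts viruses, rose from 4.77 to 43.6 FPKM. The 2 genes that fell were adaptors: TMEM173, which encodes STING, fell from 11.9 to 4.02 FPKM, and MAVS, the mitochondrial adaptor of the RNA receptors, fell from 19.9 to 12.7 FPKM. TREX1, a cytosolic DNase, and the ubiquitin ligase TRIM25 were not called, at 13.4 and 20.2 FPKM and at 38.6 and 31.4 FPKM.

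At the receptors and signal carriers the differences were smaller, with 6 of 13 higher and 1 lower (median 0.44). The type I receptor chains IFNAR1 (9.33 to 24.4 FPKM) and IFNAR2 (9.56 to 21.7 FPKM) rose. The type II receptor split, IFNGR1, its ligand-binding chain, falling from 117 to 58.6 FPKM and IFNGR2 rising from 15.2 to 61.3 FPKM. The kinases JAK1 (64.5 and 62.1 FPKM) and TYK2 (44.8 and 46.6 FPKM) were not called. Of the inhibitors, SOCS1 (34.9 to 82.1 FPKM), SOCS2 and SOCS3 rose, SOCS6 fell from 10.4 to 7.08 FPKM, and all 4 PIAS genes, which restrain STAT factors in the nucleus, were not called.

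Of the interferon regulatory factors 3 of 6 tested rose and none fell (median 1.96). They were IRF7, the factor that amplifies interferon induction (8.63 to 67.1 FPKM), IRF1 (16.3 to 94.7 FPKM) and IRF9, the DNA-binding partner of STAT factors (6.201 to 31.6 FPKM). IRF3, which is activated by phosphorylation, was not called at 40.4 and 52.2 FPKM, nor were IRF2 (21.7 and 25.3 FPKM) and IRF5.

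Among the effectors the list medians were larger. In the group of IFIT proteins, viperin and MX proteins 8 of 9 rose and none fell, with a median log2 ratio of 7.63 (3.28 with a pseudocount of 1). IFIT2 and IFIT3, which bind viral RNA together with IFIT1, rose from 7.597 to 1507 FPKM and from 5.71 to 1422 FPKM. The family was uneven: IFIT5 rose only from 7.74 to 15.8 FPKM and MX1, a dynamin-like GTPase, from 3.32 to 7.75 FPKM, while MX2 rose from 0.469 to 13.2 FPKM. Of the oligoadenylate synthetases, which sense double-stranded RNA, OAS2 rose from 0.346 to 219 FPKM, OAS3 from 7.599 to 35.3 FPKM and OASL, which lacks synthetase activity, from 14.3 to 2512 FPKM. Guanylate-binding and IFITM proteins, which act on membranes of pathogens and endosomes, had 6 of 8 higher and none lower (median 1.61). Among them were GBP1 (11.9 to 34.4 FPKM), GBP4 (0.0524 to 27.0 FPKM), IFITM1 (125 to 403 FPKM) and IFITM3 (742 to 1728 FPKM).

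ISG15 is a ubiquitin-like protein, and its list, which counts ISG15 itself, had 5 of 6 higher and none lower (median 2.82), so 4 of the 5 genes of its conjugation and removal rose. HERC5, the main ISG15 ligase in human cells, rose from 0.441 to 18.5 FPKM, HERC6 from 4.25 to 40.1 FPKM, the conjugating enzyme UBE2L6 from 107 to 205 FPKM and the protease that removes ISG15, USP18, from 2.69 to 14.3 FPKM. The activating enzyme UBA7 was not called at 26.1 and 22.8 FPKM.

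Promoters of these genes were searched because the interferon response element is where the complex of STAT factors and IRF9 binds. The windows, from RefSeq (GRCh38.p14), run from 250 bases before to 50 after the start of each gene, and 10259 tested genes had one. The element was taken as 2 copies of GAAA with 2 bases between them, on either strand, and overlapping copies were both counted. It was in 53.6% of 28 promoters of the interferon effector lists, against 3.06% of all promoters of tested genes and 3.65% of 27305 RefSeq promoters. The 100 largest rises and 100 largest falls were taken among called genes with such a window and at least 1 FPKM in both groups. Some of the largest, such as IFIT2 and OASL, are therefore not in them. Among those rises 12 promoters held the element, and among those falls 2. A match is a description of letters and shows no binding. The ISG15, IFIT1 and HERC5 promoters are shown because these genes rose and carry the element more than once, with the element in capitals, 5′ to 3′ on the strand of the gene. They lie at chr1:1013247-1013546 (plus strand), chr10:89392373-89392672 (plus strand) and chr4:88456869-88457168 (plus strand). In IFIT1 and HERC5 the element reads TTTC because it lies on the opposite strand, and in ISG15 and HERC5 the stretch in capitals joins overlapping copies.
ISG15: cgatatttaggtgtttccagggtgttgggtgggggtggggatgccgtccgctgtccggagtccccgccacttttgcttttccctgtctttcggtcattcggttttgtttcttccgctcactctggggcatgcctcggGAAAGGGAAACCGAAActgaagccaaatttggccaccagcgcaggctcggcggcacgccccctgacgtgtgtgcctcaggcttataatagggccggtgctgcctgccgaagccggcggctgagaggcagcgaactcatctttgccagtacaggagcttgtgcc
IFIT1: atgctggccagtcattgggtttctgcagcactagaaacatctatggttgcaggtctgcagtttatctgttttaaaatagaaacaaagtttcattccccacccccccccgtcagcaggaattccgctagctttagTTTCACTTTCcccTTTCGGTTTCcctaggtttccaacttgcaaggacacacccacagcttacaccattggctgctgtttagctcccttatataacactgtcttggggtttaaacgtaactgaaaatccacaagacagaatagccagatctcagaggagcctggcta
HERC5: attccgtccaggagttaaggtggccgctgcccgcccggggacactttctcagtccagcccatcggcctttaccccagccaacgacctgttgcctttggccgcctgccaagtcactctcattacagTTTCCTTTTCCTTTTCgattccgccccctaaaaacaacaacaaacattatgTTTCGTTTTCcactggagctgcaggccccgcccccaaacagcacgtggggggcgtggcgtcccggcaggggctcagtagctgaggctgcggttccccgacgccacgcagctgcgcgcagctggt

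The most distant copy began 113 bases before the start in ISG15, 116 in IFIT1 and 125 in HERC5. A FOXO site, the letters GTAAACA on either strand, was in 5 of the 100 promoters of the largest falls (AMY2B, GDF15, PROS1, SELENOP and TMPRSS15), 2 of the 100 of the largest rises and 2.34% of all promoters of tested genes. The SELENOP promoter at chr5:42811843-42812142 (minus strand) is shown as that of one of the 12 largest falls, with the FOXO letters in capitals, 45 bases before the start.
SELENOP: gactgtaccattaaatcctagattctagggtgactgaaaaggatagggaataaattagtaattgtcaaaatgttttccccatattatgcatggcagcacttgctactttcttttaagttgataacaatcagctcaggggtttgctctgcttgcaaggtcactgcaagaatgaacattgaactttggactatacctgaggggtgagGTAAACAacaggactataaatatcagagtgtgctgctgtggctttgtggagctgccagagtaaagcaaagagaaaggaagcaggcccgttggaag

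The letters of NF-kB sites, GGGACTTTC or GGGAATTTC, were in 2 of the 100 promoters of the largest rises, 1 of the 100 of the largest falls and 0.702% of all. Those of E2F sites, TTTCGCGC or TTTGGCGC, were in 1, 2 and 2.22%.

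Other antiviral genes were less uniform. The list of PARPs that transfer single ADP-ribose units, or none, had 8 of 13 higher and 1 lower (median 0.92). It also counts DTX3L, a partner of PARP9 that is not a PARP and rose from 18.3 to 41.6 FPKM. None of the list is PARP1 or PARP2, the DNA repair PARPs that olaparib was made against. ZC3HAV1, the zinc finger antiviral protein that lacks enzyme activity, rose from 14.6 to 214 FPKM, PARP14 from 12.3 to 111 FPKM, PARP12 from 15.2 to 65.5 FPKM and PARP9 from 10.5 to 44.7 FPKM. PARP3, which acts in break repair, fell from 21.2 to 14.8 FPKM, a call lost when the adjustment covers every listed gene. In the list of APOBEC3 enzymes and restriction factors 4 of 13 rose and 4 fell (median 0.17). The cytidine deaminases themselves fell or were not called: APOBEC3B, a source of mutations in breast cancer, fell from 39.96 to 18.9 FPKM and APOBEC3G from 8.81 to 3.42 FPKM. The nuclear body proteins PML (29.4 to 98.4 FPKM) and SP100 (23.1 to 87.4 FPKM) and the exonuclease ISG20 (6.24 to 220 FPKM) rose. SLFN11, whose level is known to mark sensitivity to DNA-damaging drugs, fell from 26.6 to 16.7 FPKM, while BST2, or tetherin, was not called at 219 and 262 FPKM.

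Many genes of antigen processing rose. Of 16 genes of MHC class I and peptide loading 12 rose and 1 fell (median 1.01). B2M, the light chain of every class I molecule, rose from 1282 to 4916 FPKM, TAP1, the peptide transporter, from 39.6 to 113 FPKM, and ERAP2, which trims peptides, from 12.01 to 33.4 FPKM. HLA-E, the ligand of an inhibitory natural killer receptor, was not called at 119 and 124 FPKM. Reads of HLA genes are shared between near-identical copies, so single HLA values are uncertain.

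All 14 constitutive subunits of the 20S proteasome rose, with log2 ratios from 0.69 to 2.34 and a median of 1.55. PSMA2 (in the chromosome 7 run), PSMA3, PSMA4 and PSMB5 rose furthest, PSMB5, a catalytic subunit, from 26.2 to 133 FPKM and PSMA4 from 88.1 to 355 FPKM. Of 5 immunoproteasome genes 4 rose (median 1.15): PSMB9 from 51.3 to 119 FPKM, PSMB10 from 32.5 to 74.3 FPKM and the activators PSME1 and PSME2, the latter from 108 to 241 FPKM. PSMB8, an interferon-induced catalytic subunit, was not called at 109 and 117 FPKM. The difference between the medians of these 2 proteasome lists was not tested.

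Of ligands that restrain immune cells, or in some cases activate them, 9 of 10 tested (15 listed) rose and none fell. Their median was 2.203, 1.14 with a pseudocount of 1 and 0.78 among those of at least 1 FPKM in both groups, and several, such as IDO1 and CD274, reached 1 FPKM only with shFoxO1. CD276, or B7-H3, rose from 40.4 to 394 FPKM, by far the highest level in the list. CD274, which encodes PD-L1, rose from 0.688 to 4.49 FPKM, PDCD1LG2, which encodes PD-L2, from 0.888 to 11.9 FPKM and IDO1, the enzyme that depletes tryptophan, from 0.123 to 12.1 FPKM. CD47, the signal against phagocytosis, rose from 24.7 to 42.3 FPKM. TNFSF9, which activates T cells, was also among the rises (log2 ratio 1.32), a call lost when the adjustment covers every listed gene. WARS, the tryptophanyl-tRNA synthetase and an interferon-induced gene, rose from 76.8 to 355 FPKM. Of the NKG2D ligands, which mark stressed cells for natural killer cells, 3 of 8 rose and 1 fell: MICB rose from 13.1 to 30.3 FPKM, RAET1L from 0.341 to 30.0 FPKM and ULBP1 fell from 2.82 to 0.146 FPKM, while MICA was not called at 36.8 and 37.6 FPKM.

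**Figure D5:**
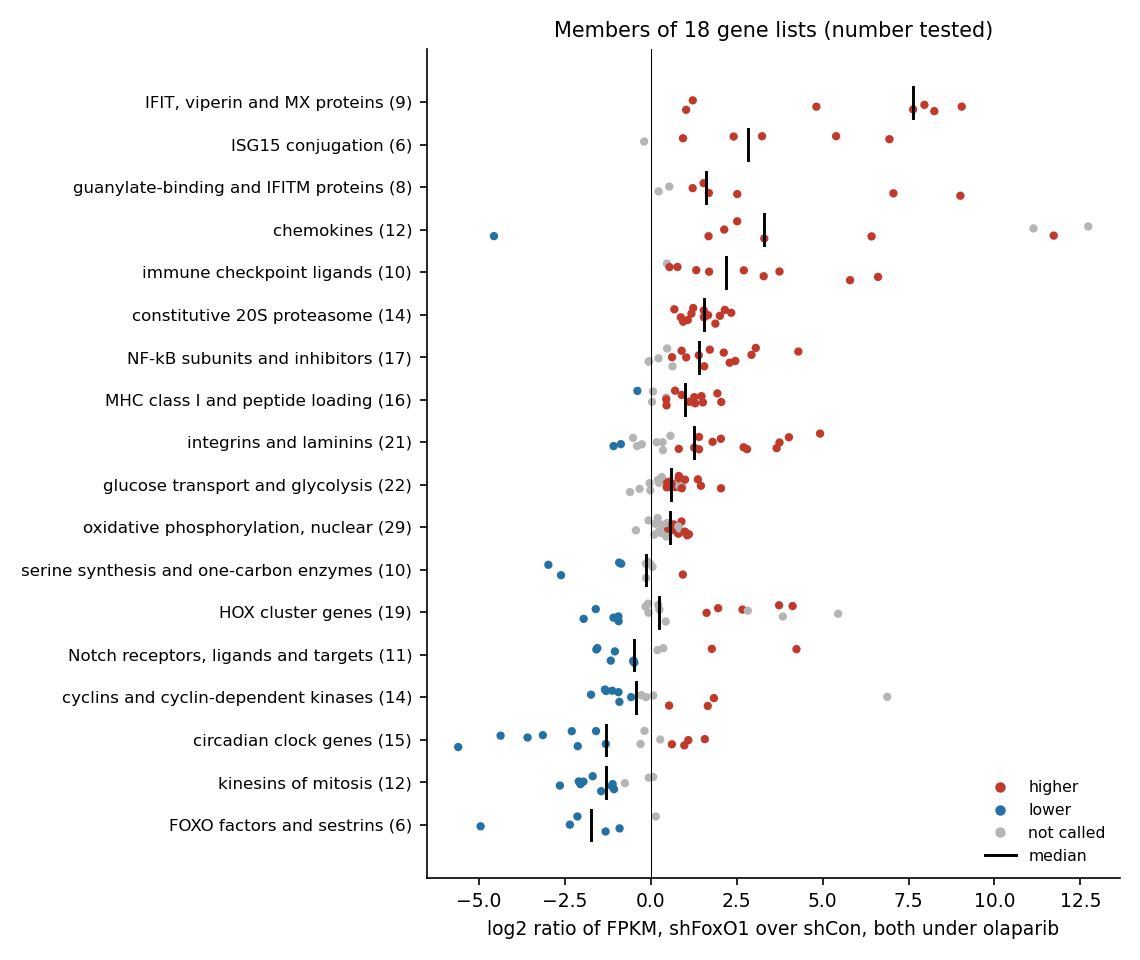
Log2 ratio of FPKM, shFoxO1 over shCon under olaparib, for each tested member of 18 gene lists (number tested in parentheses), red for higher, blue for lower and grey for not called at the authors' q of at most 0.05, with the list median as a black bar; members at 0 in a group have no ratio and are not drawn. The medians run from 7.63 for IFIT, viperin and MX proteins to -1.72 for FOXO factors and sestrins.

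Of 12 tested chemokines, from 22 listed, 9 rose and 1 fell. Most of the rises started below 1 FPKM, so those genes could be tested only through their level with shFoxO1. The median was 3.30 on the deposited scale, 6.16 with a pseudocount of 0.1, which also gives a ratio to genes at 0, and 2.14 among genes of at least 1 FPKM in both groups. CCL3, a monocyte attractant, was listed at 0 with shCon and at 164 FPKM with shFoxO1, CXCL8, a neutrophil attractant, rose from 0.365 to 31.3 FPKM, and CCL20 from 1.22 to 12.1 FPKM. CXCL12, a chemokine of stromal cells that signals through CXCR4, fell from 16.4 to 0.695 FPKM. CXCL10 and CXCL11, the interferon-induced T cell attractants, were not called in spite of 327 and 162 FPKM with shFoxO1, since their q-values were 0.276 and 0.170 in the authors' deposited table.

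In the IL-6 family 3 of 9 tested rose and 3 fell. IL6, in the chromosome 7 run, rose from 0.127 to 95.4 FPKM, LIF from 0.224 to 1.08 FPKM and IL11 from 0.0754 to 0.936 FPKM, the last call being lost when the adjustment covers every listed gene. The receptor chains LIFR (70.2 to 8.17 FPKM), IL6R (15.8 to 3.36 FPKM) and IL11RA (5.62 to 1.45 FPKM) fell. IL6ST, the shared chain gp130, and OSMR were not called, at 72.5 and 88.0 FPKM and at 43.4 and 36.1 FPKM. CLCF1, a ligand, was not called at 3.50 and 4.12 FPKM. All 3 rises were ligands below 1 FPKM with shCon, all 3 falls were receptor chains, and the list's median changed sign when genes of low level were left out.

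In the IL-1 family 6 of 10 tested (16 listed) rose and none fell (median 0.80). IL1RL1, the IL-33 receptor ST2, was the most abundant and rose from 198 to 486 FPKM. IL1A rose from 0.514 to 8.07 FPKM, IL1B from 0.196 to 3.01 FPKM, and their receptor IL1R1 from 20.6 to 58.7 FPKM. CASP1, which processes IL1B, rose from 7.47 to 13.9 FPKM, a call lost when the adjustment covers every listed gene.

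NF-kB genes were higher at most levels of the pathway, with 12 of 17 higher and none lower (median 1.397). The largest rises were inhibitors of the pathway: the ubiquitin editor TNFAIP3 (8.98 to 176 FPKM) with its partner TNIP1 (43.0 to 328 FPKM), and the inhibitors NFKBIE (4.01 to 22.1 FPKM) and NFKBIZ (3.35 to 27.8 FPKM), which acts in the nucleus. NFKB1, the p50 precursor, and the kinase IKBKB were not called, at 25.2 and 29.5 FPKM and at 13.2 and 18.3 FPKM. In the TNF superfamily 6 of 9 tested (24 listed) rose and 2 fell (median 0.91). The death receptors FAS (5.69 to 37.6 FPKM), TNFRSF10A (8.02 to 15.97 FPKM) and TNFRSF10B (49.6 to 77.8 FPKM) rose, and the decoy receptor TNFRSF10D fell from 12.1 to 6.16 FPKM.

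Caspases and genes of lytic death had 6 of 15 higher and 2 lower (median 0.35). MLKL, the executor of necroptosis, rose from 2.60 to 9.97 FPKM. GSDME, a gasdermin, rose from 17.3 to 38.2 FPKM and lies in the chromosome 7 run, while GSDMB fell from 6.02 to 1.82 FPKM. NINJ1, which ruptures the membrane of dying cells, fell from 66.4 to 43.8 FPKM. In the complement list 6 of 11 rose and 3 fell. CFB, a component of the alternative pathway, rose from 3.72 to 85.6 FPKM, and the cell surface inhibitors CD55 (35.9 to 160 FPKM) and CD59 (159 to 502 FPKM) rose. The soluble inhibitor CFI (1.69 FPKM, listed at 0 with shFoxO1) fell, as did C5 (4.87 to 0.505 FPKM).

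Most mitotic kinesins fell. Of 12 such kinesins, the motors of the spindle, 9 fell and none rose (median log2 ratio -1.29). KIF20A, a motor of cytokinesis, fell from 76.4 to 12.2 FPKM, KIFC1, which clusters extra centrosomes, from 53.1 to 12.9 FPKM, KIF11, the spindle motor that separates the poles, from 20.5 to 9.49 FPKM, and KIF18B from 33.2 to 8.54 FPKM. KIF18A, KIF20B and KIF2C were not called, at 5.68 and 5.46 FPKM, at 5.06 and 5.31 FPKM and at 45.7 and 27.2 FPKM.

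Cyclins moved in both directions. Cyclins D1 and D3, which bring cells into the cycle, rose: CCND1 from 80.8 to 255 FPKM and CCND3 from 66.7 to 238 FPKM. CCNB2 and CCNF, of G2 and mitosis, fell from 88.9 to 35.3 FPKM and from 18.3 to 8.40 FPKM, and so did CDK2, from 72.2 to 29.4 FPKM. Cyclin E1 rose slightly and cyclin E2 fell, calls that were both lost when the adjustment covers every listed gene. In the list as a whole 3 of 14 rose and 7 fell (median -0.42), and CCNB1 and CDK4 were not called, at 171 and 141 FPKM and at 146 and 133 FPKM. Among CDK inhibitors and E2F-RB factors 5 of 17 rose and 8 fell (median -0.38). CDKN1A, which encodes p21, rose from 34.0 to 88.9 FPKM and RB1 from 8.003 to 21.1 FPKM, while the E2F factors E2F1 (33.9 to 9.28 FPKM), E2F2 (15.9 to 2.75 FPKM) and E2F8 (3.04 to 0.751 FPKM) fell. FOXM1, a forkhead factor that drives mitotic genes, was not called at 35.1 and 27.1 FPKM.

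Of 17 genes of nucleotide synthesis 4 rose and 5 fell (median 0.02). Enzymes that make thymidylate fell, TK1 from 143 to 40.9 FPKM and TYMS from 107 to 35.8 FPKM, as did IMPDH2 of guanine nucleotide synthesis (513 to 260 FPKM). PAICS of purine synthesis rose from 68.9 to 131 FPKM and IMPDH1 from 27.0 to 57.1 FPKM. DUT, which clears dUTP, and GMPS were not called, at 103 and 85.5 FPKM and at 48.7 and 53.2 FPKM.

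Of EGF-like ligands and ERBB receptors 5 of 8 rose and 1 fell (median 1.41). AREG, or amphiregulin, rose from 4.07 to 41.0 FPKM, NRG1 from 3.18 to 7.56 FPKM and NRG2 from 0.287 to 11.6 FPKM. The receptor EGFR rose from 12.5 to 37.4 FPKM and lies in the chromosome 7 run. ERBB2, its partner, fell from 33.8 to 19.9 FPKM, and HBEGF was not called at 4.36 and 4.43 FPKM. Genes that ERK signalling induces as its own brakes had 9 of 14 higher and 1 lower (median 0.90). Among them DUSP5, a nuclear ERK phosphatase, rose from 11.3 to 121 FPKM, SPRY2 from 10.4 to 66.0 FPKM, SPRY4 from 9.13 to 40.4 FPKM and PHLDA1 from 4.41 to 26.1 FPKM, while SPRY1 fell from 5.43 to 2.40 FPKM.

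Ligands, receptors and targets of TGF-beta went both ways, with 5 of 15 higher and 4 lower (median 0.01, the same as all genes). The type II receptor TGFBR2 rose from 31.2 to 94.2 FPKM. The co-receptor TGFBR3 fell from 51.4 to 8.74 FPKM and the type I receptor TGFBR1 from 9.99 to 4.13 FPKM. SMAD3 and TGFB1 were not called, at 33.3 and 30.3 FPKM and at 59.0 and 64.1 FPKM. Among YAP and TAZ genes 6 of 14 rose and 4 fell (median 0.35). The paralogous co-activators themselves split: YAP1 fell from 71.7 to 38.1 FPKM and WWTR1, which encodes TAZ, rose from 6.83 to 22.4 FPKM. Of the targets, CCN1 rose from 76.7 to 184 FPKM and F3, tissue factor, from 2.71 to 17.5 FPKM, while the receptor kinase AXL fell from 87.4 to 34.5 FPKM.

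Wnt and Notch genes were more often lower than higher. In the Wnt list 7 of 17 fell and 2 rose (median -0.19). AXIN2, the feedback target of beta-catenin, fell from 6.22 to 0.943 FPKM, the receptors FZD8 (15.1 to 2.76 FPKM) and FZD2 (13.9 to 4.10 FPKM) fell, and FZD4 rose from 4.51 to 32.6 FPKM. LEF1, the DNA-binding partner of beta-catenin, was not called at 23.01 and 20.1 FPKM. In the Notch list 7 of 11 fell and 2 rose (median -0.50). Among the falls, the calls of HES1, HEY1 and JAG1 were lost when the adjustment covers every listed gene. The receptor NOTCH1 fell from 15.3 to 6.82 FPKM, its feedback target NRARP from 15.3 to 5.21 FPKM and the target HEY2 from 1.58 to 0.529 FPKM. HES4, a repressor of the HES family, rose from 58.2 to 199 FPKM and the ligand JAG2 from 0.548 to 10.3 FPKM.

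Of 21 integrins and laminins 12 rose and 2 fell. Their median was 1.26, and 0.82 without chromosome 7. ITGA2, a collagen receptor chain, rose from 8.48 to 114 FPKM, ITGB3 from 0.877 to 14.2 FPKM and LAMB3, a chain of laminin-332, from 4.10 to 51.9 FPKM. ITGB8, which activates TGF-beta, rose from 0.190 to 5.77 FPKM and lies in the chromosome 7 run. ITGB1, the chain that pairs with ITGA2, fell from 165 to 77.9 FPKM. Of 24 collagens and crosslinking enzymes 9 rose and 9 fell (median -0.50), more calls in each direction than the background. COL8A1 rose from 46.0 to 337 FPKM, COL6A2 from 0.228 to 12.3 FPKM and COL4A1 from 2.48 to 13.9 FPKM. COL12A1 fell from 44.3 to 6.04 FPKM, COL16A1 from 62.4 to 11.8 FPKM and COL4A6 from 21.6 to 5.27 FPKM. LOX, which crosslinks collagen, fell from 18.5 to 3.79 FPKM.

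Among matrix proteases and their inhibitors 2 of 17 rose and 7 fell. PLAUR, the urokinase receptor, rose from 7.83 to 161 FPKM and the inhibitor TIMP1 from 186 to 1094 FPKM. TIMP3, a second inhibitor, fell from 21.9 to 2.15 FPKM, ADAMTS1 from 11.0 to 0.855 FPKM and MMP15 from 23.3 to 8.07 FPKM, and MMP7 was at 4.80 FPKM with shCon and listed at 0 with shFoxO1. The keratins, intermediate filaments of epithelial cells, had 5 of 11 higher and 2 lower: KRT8 fell from 331 to 93.7 FPKM while its partner KRT18 was not called at 112 and 118 FPKM, and KRT80 rose from 17.1 to 55.5 FPKM. Of 9 factors of epithelial and mesenchymal identity, SNAI2 (90.4 to 50.9 FPKM) and VIM (2487 to 1656 FPKM) fell and TWIST2 (54.6 to 87.0 FPKM), CDH2 (18.6 to 30.3 FPKM) and FN1 (379 to 559 FPKM) rose, while ZEB1 was not called at 11.8 and 12.6 FPKM.

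Genes of energy metabolism were called higher more often than lower, apart from the mitochondrially encoded transcripts above. Of 29 nuclear genes of oxidative phosphorylation 14 rose and none fell (median 0.55, or 0.24 with quantile normalization). UQCRC1, of complex III, rose from 113 to 224 FPKM and SDHC, of complex II, from 63.1 to 126 FPKM, and COX4I1 was not called at 572 and 628 FPKM. Of 22 genes of glucose transport and glycolysis 13 rose and none fell (median 0.60). LDHA rose from 273 to 750 FPKM, PKM, pyruvate kinase, from 333 to 665 FPKM, PFKP from 22.9 to 94.3 FPKM and the lactate exporter SLC16A3 from 50.9 to 132 FPKM. Fatty acid oxidation had 7 of 20 higher and 4 lower (median 0.17, or -0.01 with upper quartiles set equal). HADHB of the trifunctional protein rose from 44.2 to 216 FPKM and ETFA from 65.9 to 184 FPKM, whereas HADH fell from 65.9 to 31.0 FPKM and ECI1 from 110 to 62.8 FPKM.

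In the lipid droplet list 2 of 12 rose and 2 fell. Besides CIDEC, the fatty acid carrier CD36 fell from 2.12 to 0.645 FPKM. PPARG, the factor that drives such genes in fat cells, rose from 18.7 to 25.5 FPKM, and PNPLA2, the lipase, was not called at 98.8 and 82.9 FPKM. Among 11 cytochrome P450 genes 2 rose and 4 fell. Besides CYP4B1, CYP27B1, which makes active vitamin D, fell from 10.4 to 3.36 FPKM, and CYP51A1, of sterol synthesis, rose from 27.2 to 43.8 FPKM, calls that were both lost when the adjustment covers every listed gene.

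Several serine synthesis and one-carbon genes fell. PHGDH and PSAT1, the first enzymes of serine synthesis, fell from 217 to 27.5 FPKM and from 174 to 28.4 FPKM, whereas PSPH, the last enzyme of that route, was not called at 12.3 and 12.1 FPKM although it lies in the chromosome 7 run. SHMT2 (181 to 99.9 FPKM) and MTHFD2 (164 to 86.5 FPKM), the mitochondrial one-carbon enzymes, fell as well. In that list 1 of 10 rose and 4 fell. The cytosolic enzymes SHMT1 and MTHFD1 were not called, at 8.27 and 7.53 FPKM and at 65.3 and 62.2 FPKM.

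Amino acid transporters had 5 of 19 higher and 7 lower (median -0.28). SLC38A2, a glutamine and alanine transporter, fell from 335 to 120 FPKM and the glycine transporter SLC6A9 from 13.3 to 3.57 FPKM. SLC7A2, a transporter of arginine and lysine, rose from 23.03 to 117 FPKM and SLC1A1, of glutamate, from 3.91 to 25.9 FPKM. SLC3A2, the shared heavy chain, was not called at 241 and 198 FPKM. Among cytosolic tRNA synthetases 7 of 20 rose and 3 fell: besides WARS, FARSA rose from 61.1 to 146 FPKM, while AARS fell from 164 to 53.1 FPKM and SARS from 172 to 107 FPKM.

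Of 7 metallothionein and zinc genes 4 rose and none fell, MT1X from 395 to 809 FPKM among them. In iron handling 4 of 10 rose and 1 fell (median 0.18, or -0.01 with upper quartiles set equal): FTH1 rose from 946 to 4534 FPKM whereas FTL, the ferritin light chain, was not called at 2085 and 2023 FPKM. TFRC, the receptor for iron uptake, rose from 11.9 to 68.3 FPKM together with HMOX1, heme oxygenase (33.6 to 76.8 FPKM), and HFE, which restrains that receptor, fell from 12.5 to 2.70 FPKM. The list of selenium genes had 8 of 15 higher and 3 lower. TXNRD1, the cytosolic thioredoxin reductase and an NRF2 target, fell from 309 to 64.2 FPKM, SELENBP1, which binds selenium but is not a selenoprotein, from 16.5 to 1.14 FPKM, and GPX3 rose from 0.562 to 14.0 FPKM. GPX4, which protects lipids from peroxidation, was not called at 417 and 419 FPKM. Of 24 lysosomal genes 9 rose and 6 fell: the protease CTSL rose from 24.7 to 80.8 FPKM and the channel MCOLN1 from 8.28 to 28.0 FPKM, while TFEB (12.4 to 5.92 FPKM) and TFE3 (31.1 to 17.3 FPKM), the factors that drive lysosomal genes and are themselves regulated by nutrient signalling, fell.

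Of 15 tested clock genes 8 fell and 4 rose (median -1.31, or -0.24 among genes of at least 1 FPKM in both groups). TEF and HLF, the factors that carry rhythm to target genes, fell from 18.3 to 1.52 FPKM and from 4.95 to 0.239 FPKM, and PER3 fell from 5.37 to 0.111 FPKM. Core loop genes fell as well, named here after their values were seen: CLOCK, the partner of ARNTL, from 12.98 to 5.24 FPKM, and the repressors NR1D1 from 39.2 to 8.997 FPKM and NR1D2 from 57.4 to 19.04 FPKM. NFIL3, the repressor that competes with TEF and HLF for their sites, rose from 8.004 to 23.8 FPKM. ARNTL, the core activator BMAL1, rose from 6.64 to 13.1 FPKM and CRY1, a core repressor, from 2.85 to 6.08 FPKM. The cells were collected at a time of day that the labels do not give.

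Of the HOX genes, which keep positional identity, 5 of 19 tested (34 listed) rose and 5 fell, near the background. The 5 that rose were all of the HOXA cluster in the chromosome 7 run. HOXA4 rose from 1.08 to 6.88 FPKM, HOXA5 from 2.01 to 7.82 FPKM and HOXA10 from 4.11 to 12.7 FPKM. HOXA9, named after its values were seen, went from 0.105 to 1.83 FPKM, a call lost when the adjustment covers every listed gene. No HOXA gene fell. The 5 that fell were in the other clusters, HOXC6 from 25.6 to 6.62 FPKM, HOXC10 from 75.01 to 35.4 FPKM and HOXD8 from 7.74 to 2.55 FPKM among them. Without chromosome 7 the list's median went from 0.25 to -0.11.

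Krüppel-like factors had 3 of 13 higher and 4 lower (median 0.14). KLF4 rose from 20.9 to 134 FPKM, KLF2, a factor of quiescence in endothelium and T cells, from 4.28 to 34.7 FPKM and KLF6 from 25.996 to 42.9 FPKM, while KLF11 fell from 3.26 to 0.907 FPKM. Of 25 histone methyltransferases and demethylases 8 rose and 2 fell (median -0.10). KDM6A, the demethylase of the polycomb mark, rose from 5.601 to 21.5 FPKM and KDM4C from 3.76 to 10.0 FPKM, and the H3K36 methyltransferase NSD2 fell from 58.0 to 21.0 FPKM. Among 22 long noncoding RNAs 4 rose and 7 fell: the snoRNA hosts SNHG5 (887 to 514 FPKM) and SNHG8 (385 to 164 FPKM) fell, CYTOR rose from 198 to 375 FPKM, and SNHG15 rose from 18.1 to 91.4 FPKM and lies in the chromosome 7 run. GAS5 and ZFAS1 were not called, at 842 and 922 FPKM and at 463 and 460 FPKM.

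Markers of the line and of other cell types were read beside these groups. Of 8 markers of mesenchymal triple-negative cells all were tested, 3 rose and 3 fell, and their summed level was 3491 FPKM with shCon and 2683 FPKM with shFoxO1. CD44 was at 121 FPKM in both groups. The 10 luminal markers summed to 452 and 221 FPKM, most of it from KRT8, which fell from 331 to 93.7 FPKM, and KRT18, which was not called at 112 and 118 FPKM. GATA3 was not called at 8.83 and 8.73 FPKM, CDH1, CLDN3 and PGR were listed at 0 in both groups, and ESR1 was at 0.0310 and 0.0880 FPKM. None of 8 T cell and 4 B cell markers was tested, and their summed levels were 0.159 and 0.0161 FPKM for T cells and 0.333 and 0.178 FPKM for B cells.

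Markers of other lineages were mixed. The 8 natural killer markers summed to 12.7 and 26.4 FPKM, the 8 myeloid markers to 17.3 and 41.7 FPKM, the 6 endothelial markers to 0.678 and 4.74 FPKM and the 6 adipocyte markers to 155 and 4.83 FPKM. KLRD1, a natural killer receptor subunit, rose from 0.0197 to 15.4 FPKM and NCAM1, which neural cells also express, was not called at 12.4 and 10.9 FPKM, while NKG7, KLRF1, NCR1, PRF1 and KLRC1 were listed at 0 in both groups. The endothelial markers KDR (0.386 to 2.62 FPKM) and PECAM1 (0.0937 to 1.80 FPKM) rose, and CDH5, the defining cadherin of endothelium, was listed at 0 in both. Of 8 myeloid markers 2 were tested and neither was called, CD68 being at 15.2 and 40.02 FPKM, while LYZ was listed at 0 in both groups and PTPRC was at 0.144 FPKM with shCon and listed at 0 with shFoxO1. Among adipocyte markers CIDEC fell, PLIN1 was not called at 2.35 and 0.194 FPKM, and ADIPOQ and LEP were at 0.00987 and 0.0114 FPKM with shCon and listed at 0 with shFoxO1. The part of other cell types in the results was not tested.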

How the data were processed

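RNA of SUM159 cells was measured in libraries depleted of ribosomal RNA, per the labels' protocols, which name 2 sequencing providers without assigning libraries to them. The submitters' processing notes name, without giving roles, Cufflinks 2.2.1, HISAT2 2.1.0, CASAVA 1.4 and, as the build, hg38. The authors deposited 1 FPKM value per gene and group. The authors' deposited p-values and q-values were used as given: the q-values equal Benjamini-Hochberg adjustment over the tested genes within 5.14e-07. No source says that each group's value was made from both of its libraries. Depth and counting error could not be computed.

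Log2 ratios were computed from the FPKM values without a pseudocount, and none was computed for the 232 tested genes at 0 in a group. Limma on values per library, the planned test, could not be fitted to 1 value per group, so calls rest on the authors' q at 0.05. Named genes were taken from those a rule gave, not all of which are printed: FOXO1, FOXO3 and FOXO4; the 12 largest rises and falls in ratio at 1 FPKM or more in both groups; the 10 largest in FPKM; all tested members of lists of up to 12; and from longer lists up to 4 rises, 4 falls and 3 genes not called. Genes beyond the rule are said to be so, or are markers. Some genes in the lists' counts are not reported here by name. The members, the 60 gene lists and the 8 marker lists were chosen with earlier results of these data known. For 89.0% of tested genes the symbol was found in RefSeq (GRCh38.p14), which gave positions and promoters; 19 symbols turned into dates were counted, not named. Of the tested genes 45.3% were listed with the region of another gene, and how reads were divided there is not stated. No column of other samples was present (0 left out). Calculations used Python 3.11.15, numpy 2.4.6, pandas 2.3.3 and scipy 1.17.1, and were tested on simulated data.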

Additional observations from a re-analysis of the deposited data

How the results depend on the processing

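The deposited files give 1 value per group, so leaving out a library was not run, and no result has an error of its own. No paired analysis was possible because each group has 1 pooled value and no value carries a replicate number. Genes at 0 in a group have no ratio without a pseudocount.

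The calls lost most when a difference of at least 2-fold was also asked for, which left 1737 higher and 1731 lower genes. The other alternatives run gave 2573 to 3314 higher and 2105 to 2904 lower genes. The changes of scale and pseudocount kept the authors' q-values, which were not recomputed. Those settings could turn the direction of a call but not remove it, except by leaving its gene out, so their unchanged counts are no check of the calls. Adjustment over every listed gene gave 2637 higher and 2177 lower, and 32 calls of genes that the naming rule gave were lost there. The share of higher genes among the calls ran from 50.1% to 55.7%. Over all tested genes the median was -0.17 on the log2 scale with upper quartiles set equal and -0.12 with the 50 highest genes left out. The median of the IL-6 family turned to -0.26 at a mean of 1 FPKM or more and to -1.11 at 1 FPKM or more in both groups, and that of matrix proteases and inhibitors to 0.19 at 1 FPKM or more in both. That of the HOX genes turned to -0.11 without chromosome 7 and also without chromosomes 7 and 13, settings chosen after seeing the data. Small medians also turned: with upper quartiles set equal those of TGF-beta genes (-0.18), nucleotide synthesis (-0.17), tRNA synthetases (-0.13), SOCS and PIAS inhibitors (-0.11), Krüppel-like factors (-0.05), APOBEC3 and restriction factors (-0.01), fatty acid oxidation (-0.01) and iron handling (-0.01) fell below 0, as lowering every ratio by 0.18 must do, and some of these also did with quantile normalization or the 50 highest genes left out. At 1 FPKM or more in both groups the HOX median was -0.07, and those of amino acid transporters (0.08) and lipid droplet proteins (0.01) rose above 0. Without chromosome 7 the medians of the IL-6 family (-0.01), TGF-beta genes (-0.07) and nucleotide synthesis (-0.08) were below 0. Apart from the shift of scale, the cause was not tested. No called gene that the naming rule gave changed direction under the alternatives run, and the log2 ratio of FOXO1 stayed between -2.54 and -2.29. The direction of named genes that were not called was not compared, and small ratios among them can change sign with the scale.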

Other observations

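Genes of the 19S regulatory particle, which feeds proteins into the 20S core of the proteasome, were looked at after the values of the 20S subunits had been seen. Of 20 tested 18 were higher with shFoxO1 and none was lower, with log2 ratios from -0.04 to 1.78 and a median of 0.98, beside 22.6% higher and 19.8% lower among all tested genes.

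Some genes, picked out after their values were seen, had a large ratio and were not called by the authors' deposited table. AIM2, a sensor of cytosolic DNA, had 0.0333 FPKM in the shCon group and 29.3 FPKM in the shFoxO1 group, TLR2, a receptor of bacterial lipoprotein, had 0.0157 and 10.1 FPKM, and PI3, an elastase inhibitor, had 0.380 and 33.1 FPKM. NMU and NPY2R, a neuropeptide and a neuropeptide receptor, were at 15.1 and 0.0856 FPKM and at 14.9 and 0.0165 FPKM. In all, 14 genes had a log2 ratio of at least 5 in size, at least 10 FPKM in a group and no call.

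A further 12 genes with at least 10 FPKM in a group were not tested by the authors, among them RNU6ATAC, a small nuclear RNA of the minor spliceosome, listed at 0 with shCon and at 130 FPKM in the shFoxO1 group, and SNORA33, a small nucleolar RNA, at 28.0 FPKM with shCon and listed at 0 with shFoxO1.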
